A study of Mus musculus with 16 samples.

Results

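The nuclear genes of mitochondrial complex I were described in mouse liver across the 4 groups of a cadmium (Cd) and selenium (Se) study. Members were selected by name: every protein-coding gene in the deposited table whose symbol starts with Nduf, which gave 48 of 57010 genes. Of these, 40 carry the names of subunits and 8, named Ndufaf, encode assembly factors and are given apart. The family itself was chosen from results of these libraries, after genes of oxidative phosphorylation had stood out among those lower in Cd+Se than in Cd mice, so that comparison is given here as a description, and nothing is read from its counts. A mean of at least 1 TPM (transcript abundance per length, made to add up to one fixed total in every mouse) over the 16 libraries was reached by 39 of the 40 subunit genes and by all 8 assembly factors. The exception, Ndufb11b, was listed at 0 in every mouse.

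Liver RNA came from male C57BL/6J mice, 8 to 12 weeks old at the start, with 4 mice in each group. Se mice received selenomethionine (SeMet) in the diet at 2 ppm for 3 months, Cd mice received CdCl2 at 1.25 mg/kg by daily intraperitoneal injection during the last 7 days, Cd+Se mice received both, and control mice received neither. All groups are of 1 strain and 1 sex and are labelled wild type. The mice are numbered 27 to 30 in control, 1, 2, 5 and 6 in Cd, 13 to 16 in Cd+Se and 39, 40, 41 and 44 in Se. Whole liver was used, so a smaller share of one cell type and less RNA per cell cannot be told apart.

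Complex I is the entry point of the respiratory chain in the inner mitochondrial membrane. It takes electrons from NADH through a flavin and a row of iron-sulfur clusters in its matrix arm, passes them to ubiquinone, and pumps protons through its membrane arm. Its catalytic core is shared with bacteria. The membrane part of the core is made from the mitochondrial genome (the mt-Nd genes), whereas the matrix part and a shell of accessory subunits around both arms are made from nuclear genes and imported. Assembly factors join the modules together and are not kept in the finished enzyme. Hepatocytes are rich in mitochondria.

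Features of the whole series that touch these genes were few. The read depth behind these values is unknown, since TPM do not keep it, and precision rests on the 4 mice of a group. Mt1, a metallothionein gene that Cd induces, lay between 50.9 and 221 TPM in control mice, between 3178 and 4899 in Cd, between 3621 and 6070 in Cd+Se and between 64.3 and 431 in Se. Hepatocyte markers summed to 61325 to 83907 TPM in control and 40287 to 67369 in Cd, with 1 of 6 lower. Markers of neutrophils summed to 5.73 to 15.7 TPM in control and 31.0 to 39.6 in Cd, with 3 of 3 tested genes higher, and those of Kupffer cells to 141 to 175 and 77.4 to 110.3, with 4 of 6 lower. Of sinusoidal endothelial and stellate cell markers, 2 of 4 and 1 of 3 tested were lower, and over all genes 5.82% were higher and 24.9% lower. Their part in the results below was not tested. The median of all genes tested was shifted by -0.17 on the log2 scale in Cd against control, and values are to be read against that shift. The Cd mice differed in this: library medians of log2(TPM + 1) were 3.12, 3.08, 2.68 and 2.90 in Cd mice 1, 2, 5 and 6. In control mice they ran from 3.11 to 3.20.

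In control liver, 35 of the 39 subunit genes lay between 50 and 250 TPM, and their median was 105.3 TPM. Ndufa4 was by far the most abundant, at 566 ± 60.8 TPM (SD, n = 4). Its product was long counted with complex I and is now placed with cytochrome c oxidase. Ndufa1 followed at 234 ± 22.3 TPM and Ndufb9 at 228 ± 21.9, a difference smaller than the spread between mice, and both encode accessory subunits of the membrane arm. At the other end were Ndufb1 at 37.3 ± 5.70 TPM, Ndufb4 at 22.7 ± 3.80 and Ndufa4l2 at 3.20 ± 1.89. Ndufa4l2, a paralogue of Ndufa4 that is known as a hypoxia-induced gene, was the only subunit-named gene tested with a control mean below 20 TPM. The value of Ndufb4 is uncertain, since the table lists the processed pseudogene Ndufb4c at 286 ± 16.3 TPM in control, and reads of such near-identical copies can be divided between them. The other 5 Nduf-named pseudogenes had means below 1 TPM and, like Ndufb4c, were left out of the counts. The order of the 39 subunit genes was nearly the same in each group, with rank correlations across genes of 0.94 between control and Cd, 0.98 between control and Cd+Se, and 0.995 between control and Se. These genes share libraries and are not independent points.

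The level of the whole family is dominated by its abundant members. The 40 subunit genes together summed to 5413, 4345, 4805 and 4565 TPM in control mice 27, 28, 29 and 30. They summed to 6343, 5989, 5141 and 5093 TPM in Cd mice 1, 2, 5 and 6. Cd mice 1 and 2 stood above every control mouse, while Cd mice 5 and 6 fell inside the control range. The sums in Cd+Se mice 13 to 16 were 4238, 4263, 4406 and 4676 TPM, all below the lowest Cd mouse, and in Se mice they ran from 4456 to 4782 TPM. Control mouse 27 was the highest of its group in 34 of 39 subunit genes, and Cd mouse 1 in 26. The 8 assembly factors summed to 107 to 129 TPM in control and 87.8 to 114.8 in Cd.

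**Figure D1:**
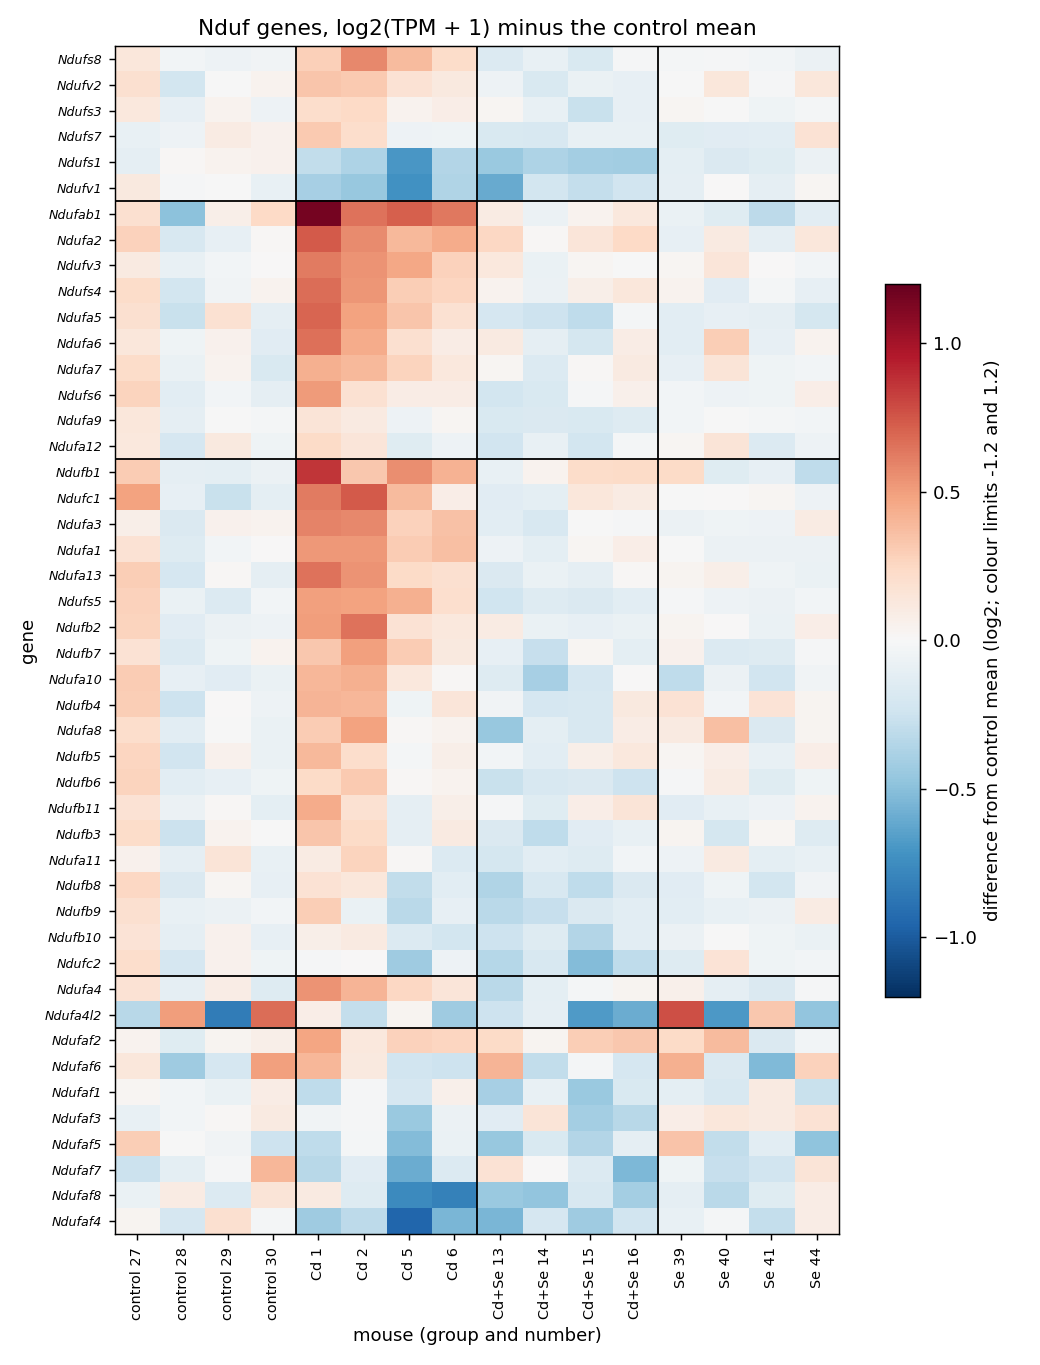
Each row is one of 46 Nduf genes tested and each column one mouse; colour is log2(TPM + 1) minus the mean of the 4 control mice. Rows are grouped from top to bottom as core subunits, accessory subunits of the matrix arm, accessory subunits of the membrane arm, Ndufa4 with its paralogue, and assembly factors, each ordered by the change in Cd. Most accessory rows are red in the Cd columns and pale in the Cd+Se columns, while Ndufs1 and Ndufv1 are blue in all 4 Cd mice and all 4 Cd+Se mice.

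The first comparison asked how Cd alone altered these transcripts. Subunit genes rose more often than they fell in Cd liver, while genes in general fell more often than they rose. Of 39 subunit genes, 16 rose and 2 fell at an adjusted p under 0.05 in limma, where 5.82% of the 11766 genes tested rose and 24.9% fell. The median log2 fold change over the 39 was 0.23, against -0.17 over all genes tested, and 31 of 39 were above 0. Changes were moderate, from -0.48 to 0.79. All 4 Cd mice lay above all 4 control mice for 8 subunit genes and below them for 2, where 6.44% and 27.8% of all genes did so. These values rest on the same Cd mice as the comparison that led to the choice of the family, and are not independent of it.

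**Figure D2:**
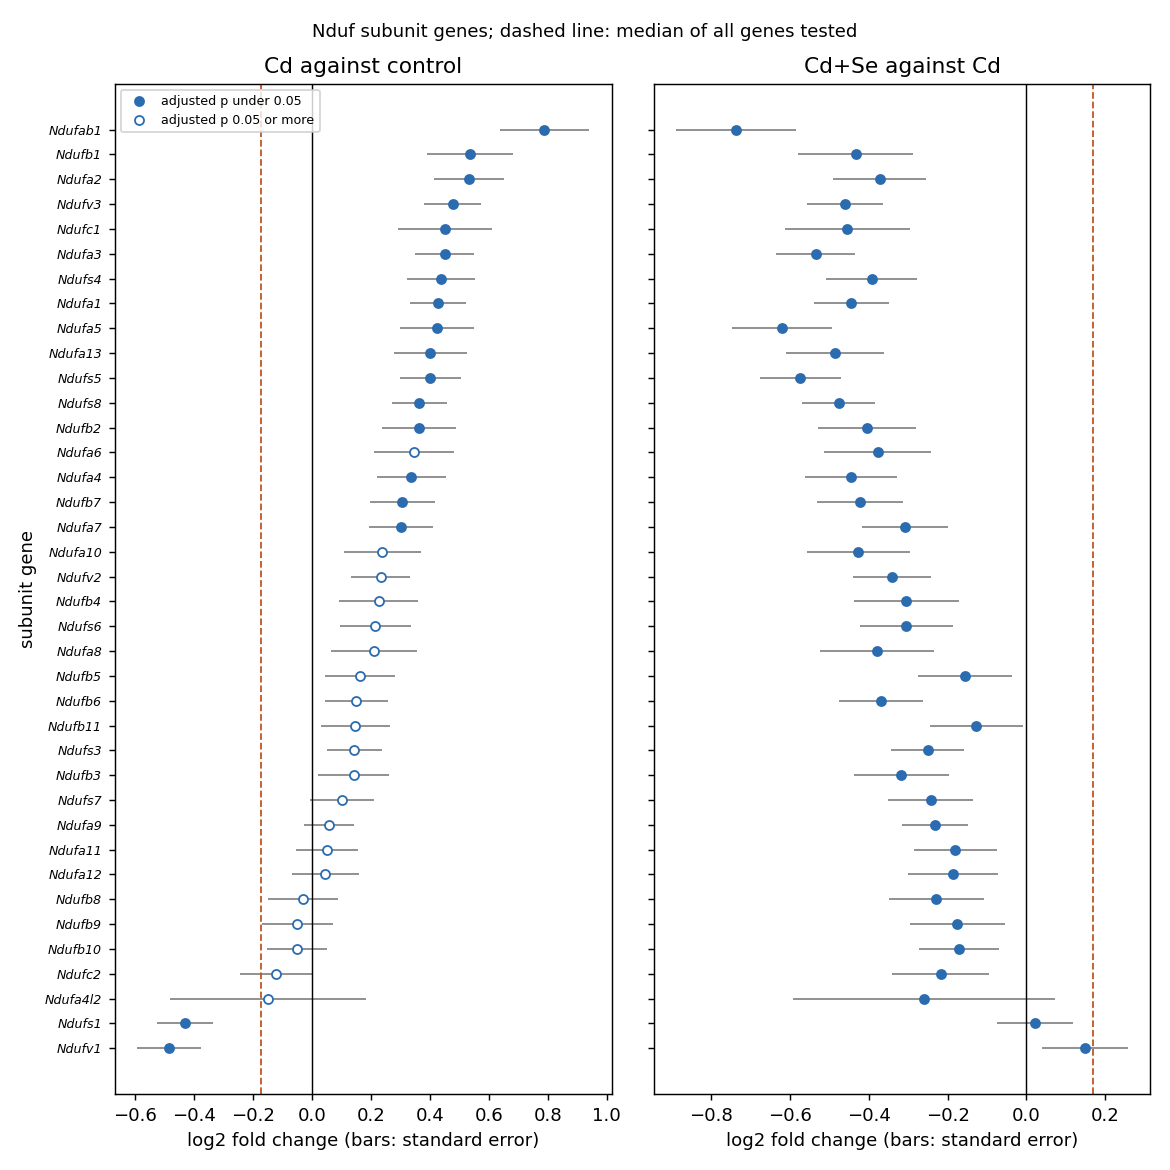
Log2 fold change with its standard error (horizontal axis) of 38 subunit genes tested, in the same order in both panels; the dashed line is the median of all genes tested, -0.17 on the left and 0.17 on the right. In Cd against control the points run from Ndufab1 at 0.79 to Ndufv1 at -0.48, filled where limma's adjusted p is under 0.05, and in Cd+Se against Cd, shown without calls, all but Ndufs1 and Ndufv1 lie below 0.

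The 7 nuclear core subunits did not move as one. They hold the flavin, the iron-sulfur clusters and the ubiquinone site. Ndufv1 binds the flavin and NADH, and its gene stands on chromosome 19 at 4007384 to 4012806, minus strand (GRCm38). It was 98.0, 89.5, 89.9 and 85.0 TPM in control mice 27 to 30 and 68.5, 65.8, 54.4 and 70.1 in Cd mice 1, 2, 5 and 6. The groups did not overlap, and the log2 fold change of Ndufv1 was -0.48 ± 0.11 (± being the standard error here and at each log2 value, limma adjusted p = 0.0042). Ndufs1, the largest core subunit and a carrier of iron-sulfur clusters, is on chromosome 1 at 63143596 to 63176833, minus strand. It was 55.8, 60.9, 62.2 and 62.6 TPM in control mice and 48.8, 46.6, 36.7 and 47.0 in Cd mice. Again no Cd mouse reached a control mouse, and the log2 difference was -0.43 ± 0.096 (adjusted p = 0.0040 in limma). Cd mouse 5 was the lowest for both genes. With libraries centred on their medians Ndufs1 stayed negative at -0.21 but missed the threshold (limma adjusted p = 0.058), and Ndufv1 was -0.26 (limma adjusted p = 0.028).

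Ndufs8, which carries a pair of iron-sulfur clusters, was the one core subunit gene that rose. It was 84.7, 75.5, 73.8 and 75.1 TPM in control mice and 94.0, 115, 100.5 and 90.2 in Cd mice, a rise of 0.36 ± 0.094 on the log2 scale (limma adjusted p = 0.0090). Every Cd mouse was above every control mouse. The core genes Ndufv2, Ndufs3 and Ndufs7 overlapped between groups and did not pass the test. Ndufv2, the partner of Ndufv1 at the tip of the matrix arm, averaged 90.4 ± 10.6 TPM in control and 106 ± 8.07 in Cd, a log2 fold change of 0.23. Ndufs3 was at 0.14 and Ndufs7, which holds the last cluster before ubiquinone, at 0.10.

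Ndufv1 and Ndufv2 make one module. A ratio of 2 genes within a mouse does not depend on how a library is scaled. Ndufv1 divided by Ndufv2 was 0.95, 1.16, 1.01 and 0.92 in control mice 27 to 30 and 0.60, 0.59, 0.54 and 0.72 in Cd mice 1, 2, 5 and 6. Ndufs1 divided by Ndufv2 ran from 0.54 to 0.79 in control and from 0.36 to 0.48 in Cd. Neither ratio overlapped between control and Cd. In Cd+Se mice 13 to 16 the first ratio was 0.69, 0.98, 0.87 and 0.92 and the second 0.51, 0.59, 0.53 and 0.54. In Se mice they were 0.92 to 0.95 and 0.54 to 0.62. The ratio of Ndufv1 to Ndufs1 was 1.51 ± 0.17 in control and 1.45 ± 0.046 in Cd, a difference below the spread. These ratios were picked after the values had been seen and carry no test.

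**Figure D3:**
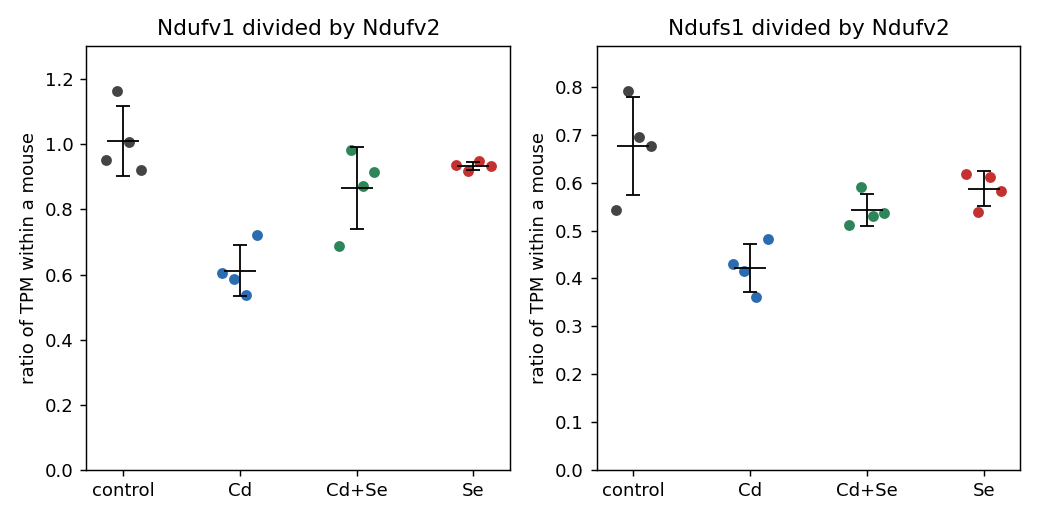
TPM of Ndufv1 (left) and Ndufs1 (right) divided by TPM of Ndufv2 in the same mouse (vertical axis, no unit), for the 4 groups; points are mice, and the bar with whiskers is the mean and SD (n = 4). The 4 Cd mice lie between 0.54 and 0.72 on the left and between 0.36 and 0.48 on the right, below every mouse of the control and Se groups.

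Accessory subunits of the matrix arm had the largest share of calls, though no difference between arms was tested. Of 10 tested, 6 rose, none fell and all had a positive log2 fold change, with a median of 0.39. Ndufab1, the mitochondrial acyl carrier protein, which also serves fatty acid and lipoate synthesis, led the family and was counted in this arm only. It was 78.9, 48.8, 72.7 and 81.6 TPM in control mice and 155, 109, 114 and 108 in Cd mice, so even the lowest Cd mouse exceeded the highest control mouse. It rose by 0.79 ± 0.15 on the log2 scale (limma adjusted p = 0.0016). Ndufv3, another, small member of the NADH-binding module, was 127 to 146 TPM in control and 164 to 209 in Cd, a log2 rise of 0.48 (limma adjusted p = 0.0022). Ndufa2, a thioredoxin-fold subunit, averaged 85.8 ± 12.7 TPM in control and 124 ± 13.5 in Cd, at 0.53 (limma adjusted p = 0.0038). Ndufs4, whose loss in mice gives a Leigh-like encephalopathy, averaged 63.8 ± 8.23 and 86.9 ± 12.1 TPM, at 0.44, and did not overlap between groups either. Ndufa5 and Ndufa7 also rose, at 0.42 and 0.30, with overlap. Ndufa12, Ndufa9, Ndufs6 and Ndufa6 had values from 0.04 to 0.35 that did not pass.

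Among the 20 accessory subunits of the membrane arm, 8 rose and none fell, with a median of 0.22. Ndufb1 stood at 45.8, 34.2, 34.1 and 35.1 TPM in control mice and 67.8, 46.5, 54.7 and 49.6 in Cd mice. The groups were separate by a narrow gap, and the rise was 0.54 ± 0.15 on the log2 scale (limma adjusted p = 0.012). Ndufa3 was 158 to 187 TPM in control and 215 to 269 in Cd, at 0.45 (limma adjusted p = 0.0042). Ndufa1, an X-linked subunit required for assembly of the membrane arm, was 263.5, 209.8, 228.5 and 233.6 TPM in control mice and 334, 335, 288 and 300 in Cd mice, at 0.43 (limma adjusted p = 0.0038). Ndufc1, Ndufa13 (also known as GRIM-19), Ndufs5, Ndufb2 and Ndufb7 rose by 0.31 to 0.45 with overlapping groups. The 12 that did not pass ran from Ndufc2 at -0.12 to Ndufa8 and Ndufb4 near 0.2 and Ndufa10 at 0.24. Among them Ndufb8, Ndufb9 and Ndufb10, 3 of the more abundant genes, lay at -0.03 to -0.05. Ndufa4 rose from 566 to 716 ± 87.2 TPM, at 0.34 (limma adjusted p = 0.039), and its paralogue Ndufa4l2 varied too widely to be read, from 1.16 to 5.12 TPM among control mice alone.

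**Figure D4:**
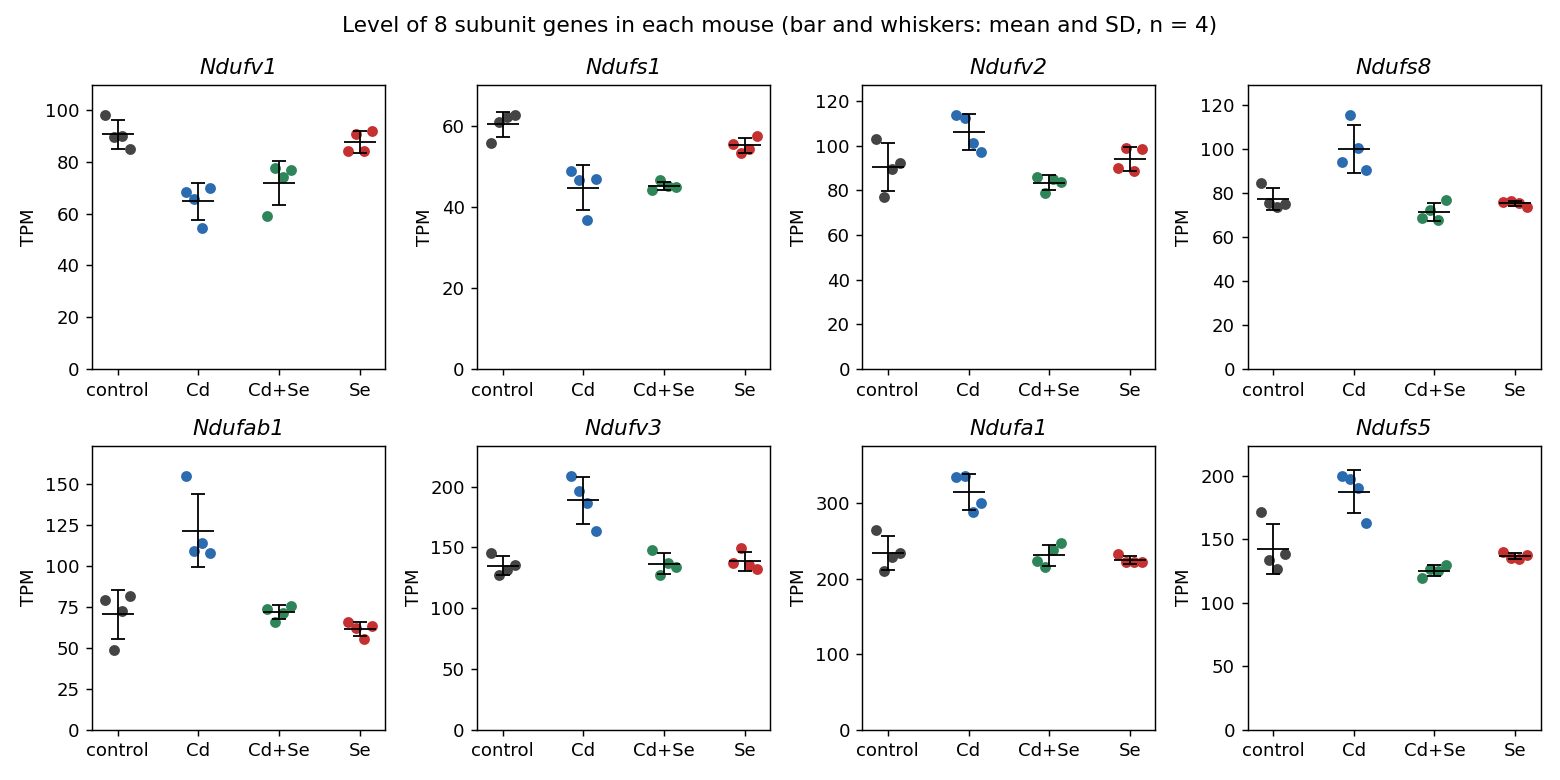
TPM (vertical axis, from 0) of 8 subunit genes in each mouse of the 4 groups; points are mice, and the bar with whiskers is the mean and SD (n = 4). Ndufv1 and Ndufs1 are lower in all Cd mice than in any control mouse, and in Ndufab1, Ndufv3, Ndufa1 and Ndufs8 all Cd mice are higher than any mouse of the other 3 groups.

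The assembly factors were close to genes in general. None of the 8 Ndufaf genes rose and 1 fell, beside 5.82% and 24.9% of all genes, and their median log2 fold change was -0.19 against -0.17. Ndufaf4, which works early in building the matrix arm, was 29.7, 25.0, 33.2 and 28.5 TPM in control mice and 21.4, 23.2, 14.5 and 19.6 in Cd mice. Every Cd mouse lay below every control mouse, with a log2 difference of -0.56 ± 0.14 (limma adjusted p = 0.0082). Ndufaf2, a factor of the late steps, was 16.1 to 18.9 TPM in control and 19.6 to 25.2 in Cd. It did not overlap between groups, but the log2 difference of 0.28 missed the threshold (limma adjusted p = 0.094). The other 6 lay between -0.41 and 0.01, and Ndufaf3, Ndufaf5 and Ndufaf7 were below 10 TPM in all mice. Of 10 further complex I assembly factors without the name, 1 rose and 4 fell, with a median of -0.28.

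Transcript length moved with the Cd group and has to stand beside these changes. Across 10473 protein-coding genes the rank correlation of the Cd change with transcript length was -0.29 (across genes, which are not independent). Subunit transcripts are short, with a median of 908 bases against 2861 for all, and 23 of 39 are at most 1000 bases long where 6.80% of all are. The 13 subunit genes of at most 700 bases had a median change of 0.31 and all 235 genes of that length 0.26. For 700 to 1000 bases the medians were 0.14 over 10 subunit genes and 0.13 over 474 genes. The short subunit genes thus had medians close to those of other transcripts of their length. The medians lay further apart for longer ones, which were few. For 1000 to 1500 bases they were 0.16 over 7 subunit genes and -0.03 over all genes of that length. For 1500 to 2000 bases they were 0.23 over 5 subunit genes and -0.12. For 2000 to 3000 bases they were -0.10 over 2 subunit genes and -0.21. Ndufab1, listed at 3479 bases, and Ndufb2, at 4371, rose in a length class whose median was -0.30. Lengths are those of the longest annotated principal transcript of a gene, or of its longest transcript where none is marked principal. The transcript expressed in liver can be shorter, so the length class of these genes is uncertain.

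After each library was corrected for length and GC content by loess, 15 subunit genes rose and 4 fell, where 13.1% of genes rose and 17.1% fell, and the median was 0.12 against -0.02 over all genes. Of the 16 genes that rose before the correction, 13 still did. Ndufa4, Ndufa7 and Ndufb7 no longer passed, while Ndufv2 at 0.30 and Ndufa10 at 0.39 now did. Ndufv1 at -0.42 (limma adjusted p = 0.0029) and Ndufs1 at -0.23 (limma adjusted p = 0.039) still fell, and they were joined by Ndufb10 and Ndufc2. Ndufab1 became larger, at 1.04, and so did Ndufb2, at 0.63. The correction used their long annotated lengths, so these values cannot show how the genes stand if shorter transcripts are expressed. The part of transcript length in the uncorrected values was not tested beyond this.

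**Figure D5:**
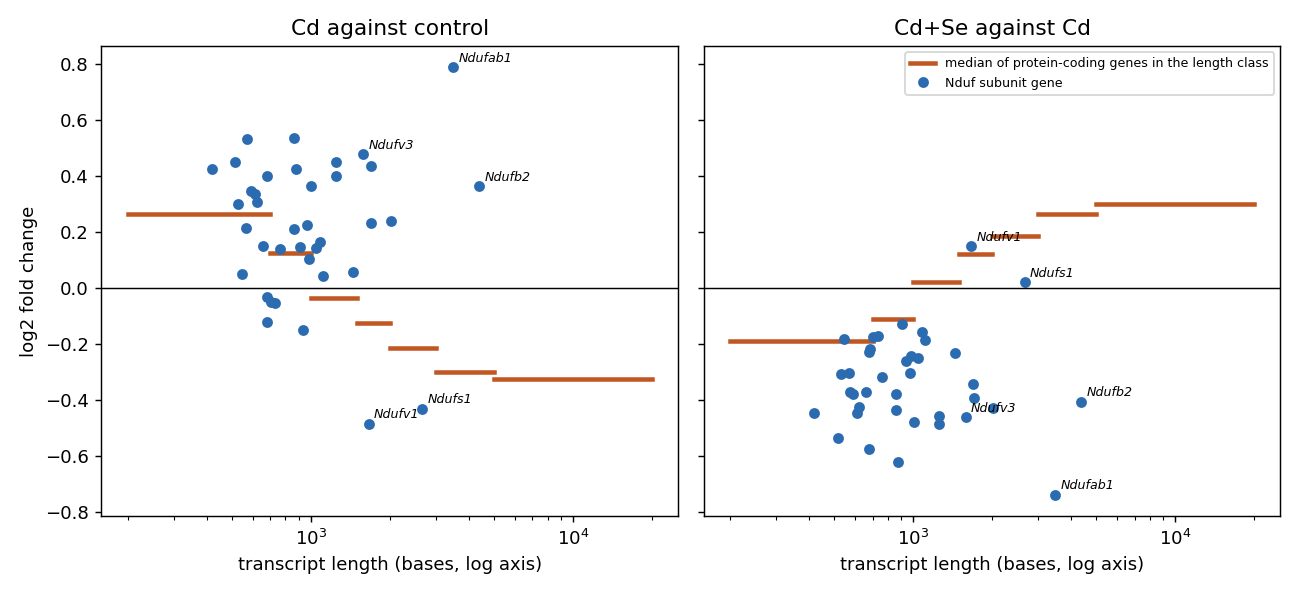
Log2 fold change (vertical axis) against transcript length in bases (log axis) for 38 subunit genes (points) in 2 comparisons; orange bars are medians of protein-coding genes in 7 length classes, of which the first and the last are open-ended. In Cd against control the class medians fall from 0.26 to -0.33. Ndufab1, Ndufv3 and Ndufb2 stand above the classes of their annotated lengths, and Ndufv1 and Ndufs1 stand below.

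The number of calls varied with the libraries and the model. The total of 18 subunit genes called became 11 without control mouse 28, without control mouse 30, without Cd mouse 1 or with only control and Cd mice in the model, and 32 with median centring, of which 31 rose and 1 fell. Median centring also turned the balance over all genes, of which 19.2% then rose and 15.3% fell. The 9 genes that rose with only these groups in the model were all among the 16.

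The promoters of these genes were read for sequences known from genes of the respiratory chain. RefSeq windows of 300 bases (250 before the transcription start and 50 after it, GRCm38.p6) were read for 34 subunit genes. Not among them were Ndufa2, a gene that rose and was left out, and Ndufs1, which fell and had no window. Motifs were searched on both strands: the NRF1 core GCATGCGC, the ETS motif CCGGAAG that NRF2 (GABP) binds, the ERR half-site AAGGTCA and the YY1 motif AANATGGC, in which N is any base. None of the 4 contains another. YY1 was found in 12 of the 34 (35.3%), where 6.96% of all 27025 genes with a window hold it. The shares were 8.82% and 3.05% for the NRF1 core, 11.8% and 9.93% for ETS, and 8.82% and 5.38% for ERR. At least 1 of the 4 stood in 21 of 34, or 61.8%, against 22.6% of all genes. Of the 15 genes read that rose in Cd, 8 held at least 1 of the motifs, as did 13 of the 19 that did not rise. The YY1 letters include those of a start codon, and a match is a description of the window, not a bound site.

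The promoters of 4 members are shown because their genes moved in different ways: Ndufab1 (chr7:122101799-122101998, minus strand), the largest rise, Ndufa3 (chr7:3617223-3617422, plus strand), a membrane-arm gene that rose, Ndufs8 (chr19:3912725-3912924, minus strand), the core gene that rose, and Ndufv1 (chr19:4012706-4012905, minus strand), a core gene that fell. Each run holds 150 bases before the start and 50 after it, 5′ to 3′ on the strand of the gene, and motif matches are in capitals.
Ndufab1: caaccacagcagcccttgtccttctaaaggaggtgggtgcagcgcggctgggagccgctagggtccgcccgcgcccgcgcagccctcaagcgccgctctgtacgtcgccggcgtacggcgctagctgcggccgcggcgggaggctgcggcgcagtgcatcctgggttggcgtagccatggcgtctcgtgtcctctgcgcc
Ndufa3: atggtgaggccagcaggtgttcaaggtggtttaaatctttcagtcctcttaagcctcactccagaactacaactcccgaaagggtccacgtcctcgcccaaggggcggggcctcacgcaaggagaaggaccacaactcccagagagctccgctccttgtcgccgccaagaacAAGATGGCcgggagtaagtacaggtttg
Ndufs8: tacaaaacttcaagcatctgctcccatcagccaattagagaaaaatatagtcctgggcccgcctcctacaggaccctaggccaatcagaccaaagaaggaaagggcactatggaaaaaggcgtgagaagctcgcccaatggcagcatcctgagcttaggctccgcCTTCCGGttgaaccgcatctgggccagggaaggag
Ndufv1: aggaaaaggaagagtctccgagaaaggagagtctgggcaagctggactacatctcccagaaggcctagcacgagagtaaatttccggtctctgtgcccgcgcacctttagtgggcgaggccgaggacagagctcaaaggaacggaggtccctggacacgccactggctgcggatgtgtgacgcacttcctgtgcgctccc
Ndufa3 shows the YY1 letters shortly after the start, and Ndufs8 the ETS letters on the opposite strand. Ndufs8 also holds the YY1 letters, in the part of its window further upstream that is not printed. The windows of Ndufab1 and Ndufv1 hold none of the 4, although one gene rose and the other fell.

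The second comparison asked how liver with both treatments stood to liver with Cd alone. This is the comparison from which the family was chosen, so its values and counts only describe what led to that choice, and nothing is read from them. Of the 39 subunit genes, 37 had a negative log2 fold change, from -0.74 to 0.15, with a median of -0.34 against 0.17 over all genes tested. The limma rule used above marked 16 as lower and none as higher, where it marked 2.35% of all genes as lower and 13.6% as higher. All 4 Cd+Se mice lay below all 4 Cd mice for 23 of 39, and 3.11% of all genes did so. In a model of these 8 mice alone 0 were marked, with the same median of -0.34, and over all genes 0.161% were then lower and 0.399% higher. Without Cd+Se mouse 14 the rule marked 7 and without Cd mouse 1 it marked 10.

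Ndufab1, Ndufv1 and Ndufs1 stood at the ends of the order in both comparisons, which share the Cd mice. Ndufab1 went from 155, 109, 114 and 108 TPM in Cd mice to 74.0, 65.9, 71.4 and 75.6 in Cd+Se mice, a log2 fold change of -0.74. Ndufa5 was 131 to 187 TPM in Cd and 92.7 to 112.8 in Cd+Se, at -0.62. Ndufs5, a subunit of the intermembrane space side, was 162 to 199.5 TPM in Cd and 119 to 129.5 in Cd+Se, at -0.57, and Ndufa3 was at -0.54. In each of these genes the groups did not overlap. Ndufs8 was at -0.48 and Ndufv3 at -0.46, with Cd+Se means of 71.3 ± 4.02 and 137 ± 8.51 TPM.

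Ndufv1 and Ndufs1 were the exceptions. Ndufv1 was 59.3, 77.5, 74.1 and 76.8 TPM in Cd+Se mice 13 to 16, at 0.15 against Cd, with Cd+Se mouse 13 inside the Cd range and the other 3 above it. Ndufs1 was 44.1, 46.6, 45.1 and 45.0 TPM in the same mice, at 0.02, inside the Cd range. Both were among 8 of 39 subunit genes that lay below the lowest control mouse in all 4 Cd+Se mice, where 586 of 11766 genes did so. The next genes in the order were Ndufb11 at -0.13 and Ndufb5 at -0.16, both of the membrane arm. Among assembly factors Ndufaf4 was highest at 0.21, with 22.6 ± 2.67 TPM in Cd+Se, and Ndufaf1 lowest at -0.16, and their median was -0.04.

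By arm, medians in Cd+Se against Cd were -0.24 over the 7 core subunits and -0.37 over both the 10 matrix-arm and the 20 membrane-arm accessory subunits. Length moved here in the opposite sense, with a rank correlation across genes of 0.34. Subunit genes of at most 700 bases had a median of -0.37 where all genes of that length had -0.19, and the medians were -0.28 and -0.11 for 700 to 1000 bases, -0.25 and 0.02 for 1000 to 1500, and -0.34 and 0.12 for 1500 to 2000. With the length and GC correction the median over the 39 was -0.29 against 0.01 over all genes.

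Set against control, Cd+Se liver showed 0 subunit genes called by limma in either direction, where 0.484% of all genes were called, and 6 of 39 at an unadjusted p under 0.05, where 10.93% of all genes were. Their median was -0.11, and 32 of 39 were below 0. These values rest on the same Cd+Se mice as the comparison that led to the choice of the family, and are not independent of it. Ndufs1 was lowest at -0.41 ± 0.096 (limma adjusted p = 0.084) and did not overlap between groups, and Ndufv1 was at -0.34 (limma adjusted p = 0.24), also without overlap. In total 8 of 39 subunit genes lay below control without overlap, where 586 of 11766 genes did so. Ndufs1 passed with no filter, quantile normalization, median centring, rescaling, the length and GC correction or without Cd mouse 5. Ndufab1, highest in Cd, was 71.7 ± 4.24 TPM in Cd+Se and 70.5 ± 14.9 in control, at 0.05.

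With Se alone no member was called. In Se against control limma called 0 of 39 subunit genes and 0 of all genes tested (0%), with 0 subunit genes and 3.86% of all genes at an unadjusted p under 0.05. The log2 fold changes lay between -0.17 for Ndufab1 and 0.08 for Ndufb4, with a median of -0.04. In Cd+Se against Se, 0 subunit genes were called where 0.714% of all genes were. An unadjusted p under 0.05 was found for 3 of 39 subunit genes (7.69%) and for 10.93% of all genes. The interaction of Cd and Se, which is the Cd effect with Se minus that without it, called 0 subunit genes where 1.04% of all genes were called. At an unadjusted p under 0.05 were 15 of 39 subunit genes (38.5%) and 21.3% of all genes, and the median was -0.34 against 0.16 over all genes. With median centring 17 subunit genes were called in this interaction, all lower, where 3.54% of all genes were called lower, and 3 to 5 with quantile normalization, rescaling to nuclear protein-coding genes or the length and GC correction. The interaction shares the Cd and Cd+Se mice with the comparison used for the choice. Cd+Se against Se shares its Cd+Se mice and is not independent of it either.

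The mitochondrial partners of these subunits varied widely in Cd mice. The 7 mt-Nd transcripts, which encode the membrane part of the core, summed to 49450 to 52475 TPM in control. In Cd mice 1, 2, 5 and 6 they summed to 39262, 41188, 67557 and 53345 TPM, so the Cd mice lay on both sides of the control range. None was called in Cd against control, with log2 fold changes from -0.53 for mt-Nd5 to 0.44 for mt-Nd3 and a median of -0.05. The Cd mice with the lowest mt-Nd sums, 1 and 2, had the highest sums of nuclear subunit TPM. All transcripts of the mitochondrial genome took 13.05%, 12.85%, 22.24% and 18.04% of the TPM in these mice and 16.4% to 17.3% in control. With libraries rescaled to nuclear protein-coding genes, 18 nuclear subunit genes rose and 2 fell, where 8.28% of all genes rose and 27.2% fell. The part of the mitochondrial share in these values was not tested.

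Genes of the other respiratory complexes were counted in the same way for Cd against control, where 5.82% of all genes rose and 24.9% fell. Of 39 nuclear genes of complexes III, IV and V, 11 rose and 3 fell, with a median of 0.14, beside 0.23 for the Nduf subunits. By complex the counts were 2 and 2 of 9 for complex III, 4 and 0 of 12 for complex IV and 5 and 1 of 18 for complex V, and for complex II 0 rose and 2 of 4 fell. The genes that fell included Sdha, the flavin subunit of complex II, at -0.75, the complex III core genes Uqcrc1 and Uqcrc2, and Atp5a1, the alpha subunit of ATP synthase, at -0.57. These 4 genes were named after their values were seen. In Cd+Se against Cd, complexes III to V had a median of -0.28. Of 78 mitochondrial ribosomal protein genes 17 rose and 9 fell in Cd, with a median of -0.01. Of 12 genes often used as measures of mitochondrial content 0 rose and 6 fell, at a median of -0.31. Among 11 regulators of mitochondrial biogenesis 0 rose and 5 fell, and Tfam, the packaging and transcription factor of the mitochondrial genome, was lowest at -1.03 (limma adjusted p = 0.0015). The coactivator gene Ppargc1a was highest at 0.80 and did not pass (limma adjusted p = 0.053). The nuclear subunit genes thus had a higher median in Cd than each of these lists except complex IV, whose median was 0.25, and no difference between lists was tested.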

How the data were processed

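Liver RNA-seq of 16 mice was used, 4 in each group, with groups taken from the sample titles. Each title names replicates 1 and 2 of a mouse, and the table has 1 column per mouse. The authors deposited 1 table of TPM for 57010 genes. RNA was poly(A)-selected and random-primed, and libraries and analysis were made by a sequencing company. The submitters' processing notes name fastp, HISAT2 and StringTie and the build GRCh38, a human build, although the table lists mouse Ensembl identifiers. The mouse build is not given in the sources used here. TPM keep no depth, so none is given.

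Members and lists were chosen with earlier results of these data known. The 11766 genes averaging 1 TPM or more entered the test on log2(TPM + 1), a scale that understates changes of low genes, with limma 3.58.1 in R 4.3.3: a mean per group, eBayes with trend, and Benjamini-Hochberg adjustment over all genes tested at 0.05. The steps were tested on simulated data with 200 changed genes, set to log2 changes of 0.5 or 1 in equal numbers. They recovered 19 of those changed by 0.5 and 78 of those changed by 1. Changes of 0.5 were thus mostly missed, and a gene not called can still have changed. Labels do not say how mice were housed or batched, and p-values measure the spread between these mice. Named genes were the core subunits, Ndufa4, Ndufa4l2, the 4 highest and 4 lowest subunits and the highest and lowest assembly factor by log2 fold change in Cd against control and in Cd+Se against Cd; other genes are given in addition. For 1 tested subunit gene, single values are not reported here, and it stays in counts and medians. GENCODE M21 (GRCm38) gave positions, transcript lengths and GC content, and promoters from RefSeq. Alternatives were a pseudocount of 0.1, no filter, a mean of at least 5 TPM, quantile normalization, median centring, rescaling to protein-coding genes outside the mitochondrial genome, only the groups compared, eBayes without trend, a loess correction for length and GC content (span 0.5), and leaving out each mouse.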

Additional observations from a re-analysis of the deposited data

Results flagged for a closer look

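Within groups of 4 mice, a mouse was set apart when the gap between it and its nearest neighbour took up more of the group's range than Dixon's 95% critical value allows. Of 84 groups of values tested, for 21 named genes in 4 groups, 6 did so, where chance gives about 4.2. Cd mouse 1 stood above its group for Ndufab1, at 155 TPM with the next at 114 (ratio 0.863). Control mouse 27 stood above its group for Ndufs8, at 84.7 TPM with the next at 75.5 (ratio 0.846), and for Ndufb1, at 45.8 with the next at 35.1 (ratio 0.911). Control mouse 28 was low for Ndufa3, at 158 TPM with the next at 183 (ratio 0.878). Se mouse 44 was high for Ndufs7, at 64.6 TPM with the next at 52.3 (ratio 0.950), and for Ndufa3, at 190.5 with the next at 171 (ratio 0.888).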

How the results depend on the processing

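The median log2 fold change of the subunit genes kept its sign in all 25 alternatives for Cd against control (0.12 to 0.45) and for Cd+Se against Cd (-0.54 to -0.27). The number of subunit genes called, 18 in Cd against control, was 32 with median centring, 11 with only the groups compared and 11 to 19 when a mouse was left out. Of all genes, 19.2% rose and 15.3% fell with median centring, and 6.35% and 24% with only the groups compared. In Cd+Se against Cd, which led to the choice of the family and whose counts support nothing, the 16 genes marked became 28 with quantile normalization, 36 with median centring, 29 with rescaling and 0 with only the groups compared, and 7 to 18 when a mouse was left out. The share of all genes marked lower, 2.35%, became 7.72% with quantile normalization and 10.8% with median centring. It was 4.28% with rescaling and 0.161% with only the groups compared. In Cd+Se against control the 0 calls became 1 with no filter, quantile normalization, median centring or rescaling, 2 with the length and GC correction, and 0 to 1 without a mouse. Of all genes, 0.578% were called higher and 0.543% lower with the length and GC correction. The interaction gave 5 calls with quantile normalization, 17 with median centring, 4 with rescaling and 3 with the length and GC correction. Of all genes, 2.79% were then higher and 1.67% lower with quantile normalization, and 2.68% and 3.54% with median centring. The shares were 4.5% and 0.603% with rescaling, and 1.7% and 1.29% with the length and GC correction. No call was made in Se against control or Cd+Se against Se under any alternative run. The causes were not tested.

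Signs were followed across the alternatives only for the 21 named genes. Among those uncalled in Cd against control, the sign turned for Ndufs7 with the length and GC correction (-0.0029). It turned for Ndufa4l2 with quantile normalization (0.017) and median centring (0.071), and leaving out a mouse gave -0.43 to 0.073. It turned for Ndufc2 with median centring (0.098), and for Ndufaf1 with quantile normalization (0.034) and median centring (0.10). No paired analysis was possible because the groups share no replicate numbers. TPM without counts do not show what depth limits.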
